A study of Mus musculus with 12 samples.

Results

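The genes described here are those whose change between day 4 and day 6 of neuronal differentiation differed between a pair of mouse embryonic stem cell lines, HM1 and CAG150. The quantity is the line by day interaction, which is the day 6 minus day 4 difference in CAG150 less the same difference in HM1. All 12 arrays of the series entered it, 3 for each line at each day. HM1 is a male line in which Hprt is not functional. CAG150 carries expanded CAG repeats, per the series title, and as far as the study is known these lie in Htt, the gene of Huntington's disease. All 4 groups are whole cultures in which stem cells had been taken towards neurons, and the labels give nervous system as the source and state no treatment beyond the differentiation. There was 1 line of each kind, so the repeat cannot be told apart from any other difference between the lines. Nothing in the labels says that replicates came from separate cultures, so p-values here reflect the spread between arrays alone, which may be technical. The groups follow the sample titles. The descriptions of the HM1 day 6 samples give the earlier day, and those of all day 6 samples give the same replicate number, so every result below rests on the titles.

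When embryonic stem cells become neural, they pass through progenitors that resemble the early neural tube. Along the back-to-belly axis, Wnt and BMP signals from the roof and Hedgehog from the floor set up bands of progenitors that express different homeobox and bHLH factors, and each band makes its own classes of neurons. R-spondins are secreted proteins that strengthen Wnt signalling through Lgr receptors. Cultures of this kind also hold cells of other fates, such as contractile and matrix-producing cells, and an array of a whole culture reads the sum. Here fewer cells of a type and less RNA per cell cannot be told apart.

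Values are deposited intensities, given array by array in the order of the replicate numbers in the titles or as the mean and SD over 3 arrays. They were compared as log2(intensity + 16), with the standard error of a limma fit of 4 group means to all 12 arrays. A positive interaction means that the level in CAG150 went up more, or down less, than in HM1. P-values were adjusted by the Benjamini-Hochberg method over all 45037 probe sets, and an interaction was called at an adjusted p under 0.05. A gene is represented by its brightest probe set, and counts of called genes and list members are by that probe set; members called by another probe set alone are named beside the list.

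An interaction was called for 295 of the 45037 probe sets (0.655%), 123 higher (0.273%) and 172 lower (0.382%). Of the 18193 genes with a probe set of their own, 181 (0.995%) were called, 78 higher (0.429%) and 103 lower (0.566%), and 2161 (11.9%) had an unadjusted p under 0.05. The median interaction over all genes was -0.01. For comparison, the day difference itself was called for 3677 genes (20.2%) in HM1 (11.1% of genes rose and 9.09% fell) and 4390 (24.1%) in CAG150 (12.4% rose and 11.8% fell), and all of these contrasts share arrays. The direction of the day differences depended on the scale of the arrays, whose medians were 0.10 higher at day 6 in both lines: with the medians set equal, the probe sets called higher and lower went from 4036 (8.96%) and 2625 (5.83%) to 2726 and 3968 in HM1 and from 4709 (10.5%) and 3578 (7.94%) to 3452 and 4957 in CAG150, while the share of called interactions that were higher went from 41.7% to 43.5%. Leaving out an array also makes its group smaller, so a call lost in this way need not mean that the array stood apart. Counts of calls fell whichever array was left out, to 79 to 93 probe sets higher and 84 to 124 lower. Both counts were lowest without CAG150 day 4 replicate 2 (79 and 84), and without CAG150 day 6 replicate 3 they were 79 and 96. The lower count also moved by over 1.5 times without HM1 day 4 replicate 1 (103) or 3 (106), HM1 day 6 replicate 1 (106), 2 (114) or 3 (110), CAG150 day 4 replicate 3 (105) and CAG150 day 6 replicate 1 (108). Of the 181 genes, 83 kept the call without each array in turn, 38 higher and 45 lower, and no called gene changed sign under any alternative fitted. Of the 76 called genes named by rule below, 30 kept the call under every alternative fitted. A further 15 lost it only with a pseudocount of 1, which gives dim values more weight; these were Rspo2, Tfap2a, Fgfbp1, Fezf2, Lhx9 and Cdh1, higher, and Ccn2, Il17rd, Anxa1, En2, Npnt, Tox2, Foxc1, Wnt7a and Tecrl, lower. Median centring ended the calls of Nrcam, Hes5, Crabp1, Fgf13, Bmper, Apoe, Krt18, Pkp2, Slc2a1 and Ctsl, quantile normalization those of Slc17a6 and Hes5, a variance trend those of Spon1, Bmper and Tgfb2, and averaging a gene's probe sets those of Lmx1b, Calb1, Chl1, Nrcam, Tgfb2, Tbx20, Pkp2 and Ctsl. Replicate number as a block ended the calls of 19 named genes. Higher were Calb2, Slc17a6, Lmx1b, Sema3e, Lmx1a, Chl1, Id1, Fgf13 and Nrcam. Lower were Slc2a1, Pkp2, Ctsl, Apoe, Bmper, Crabp1, Spon1, Krt18, Hes5 and Apcdd1. For 26 of the 76 a pseudocount of 1 or 64 moved the interaction by over 1.5 times, and both values are given at the gene. Where leaving out an array ended a call, this is said at the gene, and a call lost without any of a number of arrays is one that leaving out any 1 of them ended.

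Median intensities of the arrays ranged from 19.2 to 25.9, and log2 values correlated at 0.986 to 0.991 within groups. The neural label was checked on Tubb3, a neuronal tubulin, which measured 530.5 ± 47.7 at day 4 and 2064 ± 246 at day 6 in HM1, and 604 ± 79.04 and 3092 ± 440.3 in CAG150. Its level rose in both lines, by 1.93 ± 0.14 and 2.32 ± 0.14 on the log2 scale, and its interaction was not called (0.40 ± 0.20, adjusted p = 0.55). Nes, an intermediate filament of progenitors, rose in both lines too and had an interaction of 0.06 ± 0.20 (adjusted p = 0.96). Pax6, a progenitor factor, rose by 1.82 in HM1 and 1.21 in CAG150, with an interaction of -0.60 ± 0.14 that was not called (adjusted p = 0.1, 0.014 to 0.23 over the alternatives, of which 4 called it). Pou5f1, which keeps stem cells undifferentiated, measured 335, 220.4 and 468 in HM1 at day 4 and 318, 308 and 298 at day 6. In CAG150 Pou5f1 measured 107, 125 and 82.9 at day 4 and 87.4, 140.1 and 91.3 at day 6, and the days overlapped in each line (interaction 0.09 ± 0.33, adjusted p = 0.97). Htt measured 152 ± 12.6 at day 4 and 132 ± 22.1 at day 6 in HM1, and 105 ± 9.70 and 65.1 ± 6.52 in CAG150. Its interaction of -0.37 ± 0.18 was not called (adjusted p = 0.52). Hprt was low in every group, near the median intensity of an array, with means from 20.3 ± 4.40 to 24.4 ± 4.64.

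By brightest probe set and with a pseudocount of 16, the largest called interaction in each direction belonged to a factor that helps to decide the class of neuron a progenitor makes, Ptf1a higher and Dbx1 lower. The rank of Ptf1a depended on the pseudocount: with 64 it was at 1.16, below Stmn2 at 2.07, Rspo2 at 1.89 and Tfap2b at 1.83. Their promoters, the 250 bases before the annotated start on the gene's own strand in the RefSeq table for GRCm38.p6, are shown because both genes were near silent or steady in one line while they rose in the other, and CG pairs, the sites of DNA methylation, are in capitals. The Ptf1a window is chr2:19445413-19445662 on the plus strand and the Dbx1 window chr7:49636836-49637085 on the minus strand.

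Ptf1a: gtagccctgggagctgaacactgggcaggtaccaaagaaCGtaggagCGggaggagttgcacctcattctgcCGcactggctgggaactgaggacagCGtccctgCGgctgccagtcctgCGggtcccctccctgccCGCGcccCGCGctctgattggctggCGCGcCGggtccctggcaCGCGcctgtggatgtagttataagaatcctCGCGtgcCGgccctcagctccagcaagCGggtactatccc

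Dbx1: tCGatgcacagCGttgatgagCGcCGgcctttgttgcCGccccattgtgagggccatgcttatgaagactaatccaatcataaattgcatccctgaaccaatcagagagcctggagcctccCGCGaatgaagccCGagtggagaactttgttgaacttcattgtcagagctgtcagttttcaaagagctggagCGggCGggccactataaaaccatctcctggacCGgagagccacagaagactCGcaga

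The Ptf1a window holds 19 CG pairs at 66% G and C, and 19.7% of the 32851 promoters in the table used have at least as many. The Dbx1 window holds 12 at 52.8% G and C, a number that 33.5% of promoters reach. Promoters on chromosome 18 were left out. Of the called genes, 130 had a promoter among those used, some of them more than 1. The median number of CG pairs was 13 in the 77 promoters of higher genes and 11 in the 93 of lower genes, beside 6 over all. All promoters used belong to 27025 genes, measured on these arrays or not, while 174 of the 181 called genes were above the signal filter. Measured genes of like signal were not compared, so a CG number particular to called genes is not shown. The letters CTTTGA, a core of TCF and LEF binding sites searched on both strands, were found in 9.09% of promoters of higher genes, 12.9% of lower genes and 13.8% of all. The E box CANNTG, which bHLH factors such as Ptf1a and Neurog1 bind and which reads the same on both strands, was found in 64.9%, 62.4% and 66.2%. The CArG box, bound by serum response factor, was found in 3.9%, 2.15% and 1.47% (3, 2 and 482 promoters), and the AP-1 letters TGANTCA, searched on both strands, in 7.79%, 9.68% and 6.75%. These are matches of letters and say nothing about binding in these cells.

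Ptf1a, a bHLH factor needed for inhibitory neurons of the dorsal spinal cord and cerebellum, measured 8.44, 10.7 and 3.01 in HM1 at day 4 and 11.6, 7.60 and 9.19 at day 6. In CAG150 it measured 0.813, 0.859 and 1.66 at day 4 and 72.8, 71.5 and 119 at day 6. All 9 arrays of the other groups lay under 12, and the 3 CAG150 day 6 arrays lay above 70 (interaction 2.44 ± 0.24, adjusted p = 0.00085). Because 3 groups are at background, the size depends on the pseudocount, and it was 4.94 and 1.16 with pseudocounts of 1 and 64. Dbx1, a homeobox factor that marks progenitors at the boundary of the dorsal and ventral neural tube, measured 244, 209 and 245 in HM1 at day 4 and 2134, 1761 and 1947 at day 6. CAG150 arrays gave Dbx1 values of 447, 399.8 and 343 at day 4 and 404, 463 and 410.3 at day 6. The gene rose 7.89-fold in HM1 and had overlapping days in CAG150, where the difference was 0.10 ± 0.12 (adjusted p = 0.66), giving the largest called interaction by brightest probe set in either direction (interaction -2.88 ± 0.17, adjusted p = 2.9e-05).

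Called interactions took several shapes. Of the 78 higher genes, 28 rose in CAG150 with no called change in HM1, 24 rose in both lines, 16 fell in HM1 with no called change in CAG150, 8 fell in HM1 and rose in CAG150, and 2 fell in both. Of the 103 lower genes, 32 rose in HM1 with no called change in CAG150, 23 fell in CAG150 alone by the same rule, 20 rose in both lines, 16 fell in both, and 12 rose in HM1 and fell in CAG150. These classes use each line's own called day difference and describe the genes; the interaction is the test of the difference between lines.

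**Figure D1:**
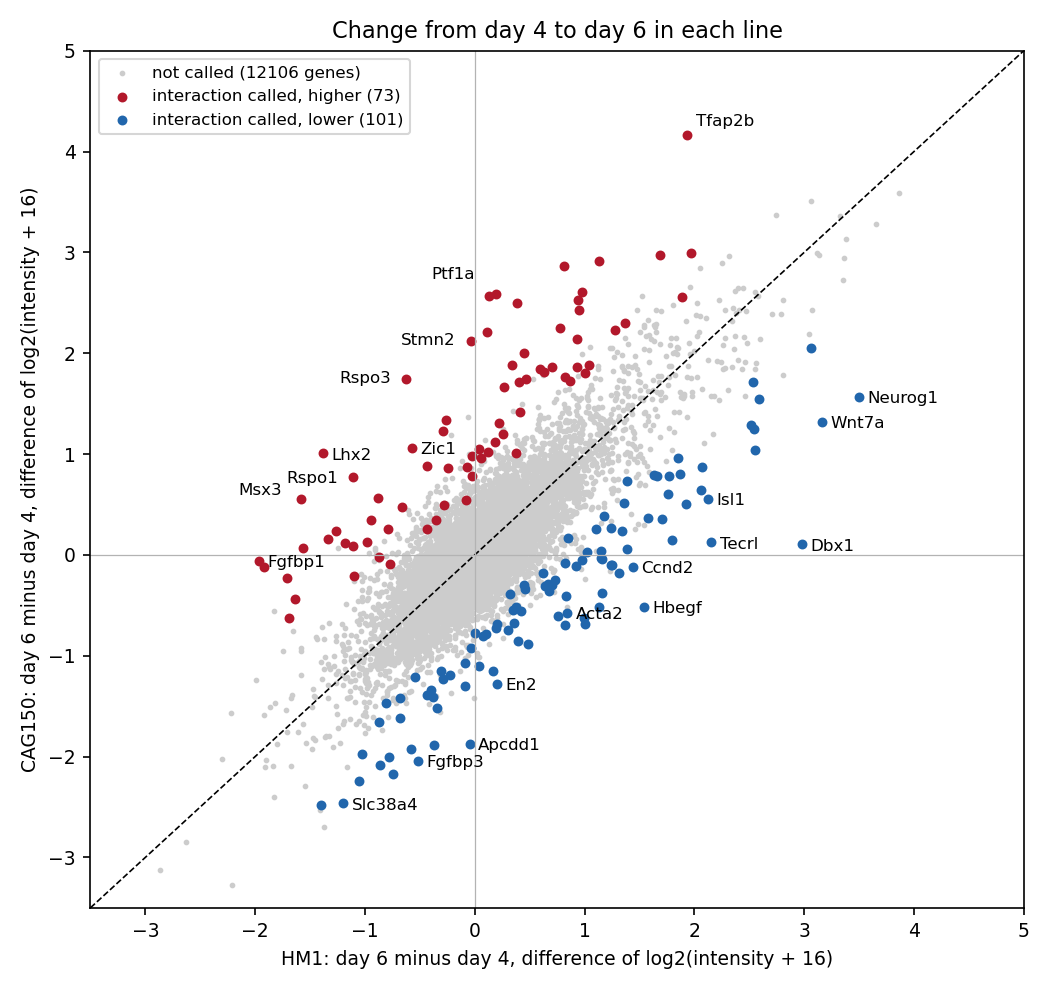
Each point is 1 of the 12280 genes above the 40th percentile of signal, with the day 6 minus day 4 difference of log2(intensity + 16) in HM1 on the x axis and in CAG150 on the y axis, means of 3 arrays per group. Coloured points are the 73 higher (0.594%) and 101 lower (0.822%) genes with a called interaction, 1.42% in all, and the dashed line marks equal changes, on which the interaction is 0. Rspo3, Lhx2, Msx3, Rspo1 and Zic1 lie in the upper left, down in HM1 and up in CAG150, and Dbx1 lies far right at 2.98 in HM1 and 0.10 in CAG150.

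Gene lists were chosen with earlier results of these data known, so their shares of calls are a description and not a test. Counts of every list below are to be read beside the shares over all genes, 0.429% higher and 0.566% lower. Among the lists, the dorsal neural tube list, which joins roof plate and dorsal progenitor genes, held the most calls for its size. Of its 26 measured genes 7 were higher (26.9%) and 2 lower (7.69%). Its median interaction was 0.50 beside -0.01 over all genes, from median day differences of -0.07 in HM1 and 0.75 in CAG150. All 3 R-spondin genes of the list were among the 7. Rspo3 measured 22.6, 21.1 and 23.4 in HM1 at day 4 and 9.86, 6.71 and 10.3 at day 6. In CAG150 Rspo3 measured 56.7, 57.5 and 60.4 at day 4 and 236, 199.5 and 268 at day 6. It fell in HM1 and rose in CAG150, with no overlap of days in either line (interaction 2.37 ± 0.16, adjusted p = 4e-05, or 3.23 and 1.53 with pseudocounts of 1 and 64). Rspo2 measured 48.8, 50.7 and 25.1 in HM1 at day 4 and 38.7, 46.4 and 50.2 at day 6. In CAG150 Rspo2 measured 158, 143 and 182 at day 4 and 766, 725 and 932 at day 6. The HM1 days overlapped and the CAG150 days did not, and the interaction was 2.10 ± 0.25 (adjusted p = 0.0028). Rspo1 measured 57.6, 64.9 and 54.05 in HM1 at day 4 and 23.1, 10.95 and 23.5 at day 6. In CAG150 Rspo1 measured 61.3, 70.00 and 66.6 at day 4 and 103, 126 and 145 at day 6. It fell by 1.11 in HM1 and rose by 0.77 in CAG150 (interaction 1.88 ± 0.22, adjusted p = 0.0025, or 2.54 and 1.10 with pseudocounts of 1 and 64).

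The homeobox gene Msx3, expressed in the dorsal neural tube, measured 97.1, 113 and 84.5 in HM1 at day 4 and 27.2, 20.2 and 18.98 at day 6. In CAG150 Msx3 measured 125, 149 and 183 at day 4 and 196, 220.3 and 273 at day 6. It fell in every HM1 array below the lowest day 4 array and rose in CAG150 (difference 0.55 ± 0.16, adjusted p = 0.03; interaction 2.13 ± 0.23, adjusted p = 0.0012, or 2.71 and 1.36 with pseudocounts of 1 and 64). Zic1, a zinc finger factor of dorsal progenitors, measured 273, 305 and 255 in HM1 at day 4 and 163, 185 and 194 at day 6. In CAG150 Zic1 measured 534, 503 and 669 at day 4 and 1134, 1046 and 1432 at day 6. It fell by 0.58 in HM1, rose by 1.06 in CAG150, and was higher in CAG150 at both days (interaction 1.64 ± 0.20, adjusted p = 0.003). Its relative Zic5 fell in HM1 from 297 ± 25.7 to 108 ± 0.736 and was at 195 ± 41.9 and 217 ± 35.5 in CAG150 (interaction 1.49 ± 0.21, adjusted p = 0.006). Lmx1a, a roof plate factor, was under 6 on all arrays but those of CAG150 at day 6, which gave 22.4, 38.9 and 28.2 (interaction 1.21 ± 0.21, adjusted p = 0.026). That call was lost without any of 8 of the 12 arrays, and the size was 2.77 and 0.47 with pseudocounts of 1 and 64.

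The 2 lower members of the list were Dbx1, given above, and Irx3, a homeobox factor of intermediate progenitors. Irx3 rose in both lines, from 665 ± 22.6 to 1772 ± 116 in HM1 and from 1189 ± 35.4 to 1982 ± 59.9 in CAG150 (interaction -0.66 ± 0.13, adjusted p = 0.04), and was not called with any 1 of the 12 arrays left out. Other dorsal genes did not pass. Pax3, which marks dorsal progenitors, rose in both lines with an interaction of -0.24 ± 0.25 (adjusted p = 0.83), and Pax7, its relative, had -0.88 ± 0.28 (adjusted p = 0.26). Msx1 was at -0.06 (adjusted p = 0.97), Zic2 at 0.27 (adjusted p = 0.83), Olig3 at 0.55 (adjusted p = 0.2) and Gsx1 at 0.70 (adjusted p = 0.24). Wnt1, the Wnt ligand of the roof and midbrain, fell in both lines and had -1.32 ± 0.34 (adjusted p = 0.13), the opposite sign to the R-spondins. The summed intensity of the list was 2600 to 2789 in HM1 at day 4 and 5653 to 6288 at day 6, and 4316 to 4734 and 8165 to 9236 in CAG150.

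**Figure D2:**
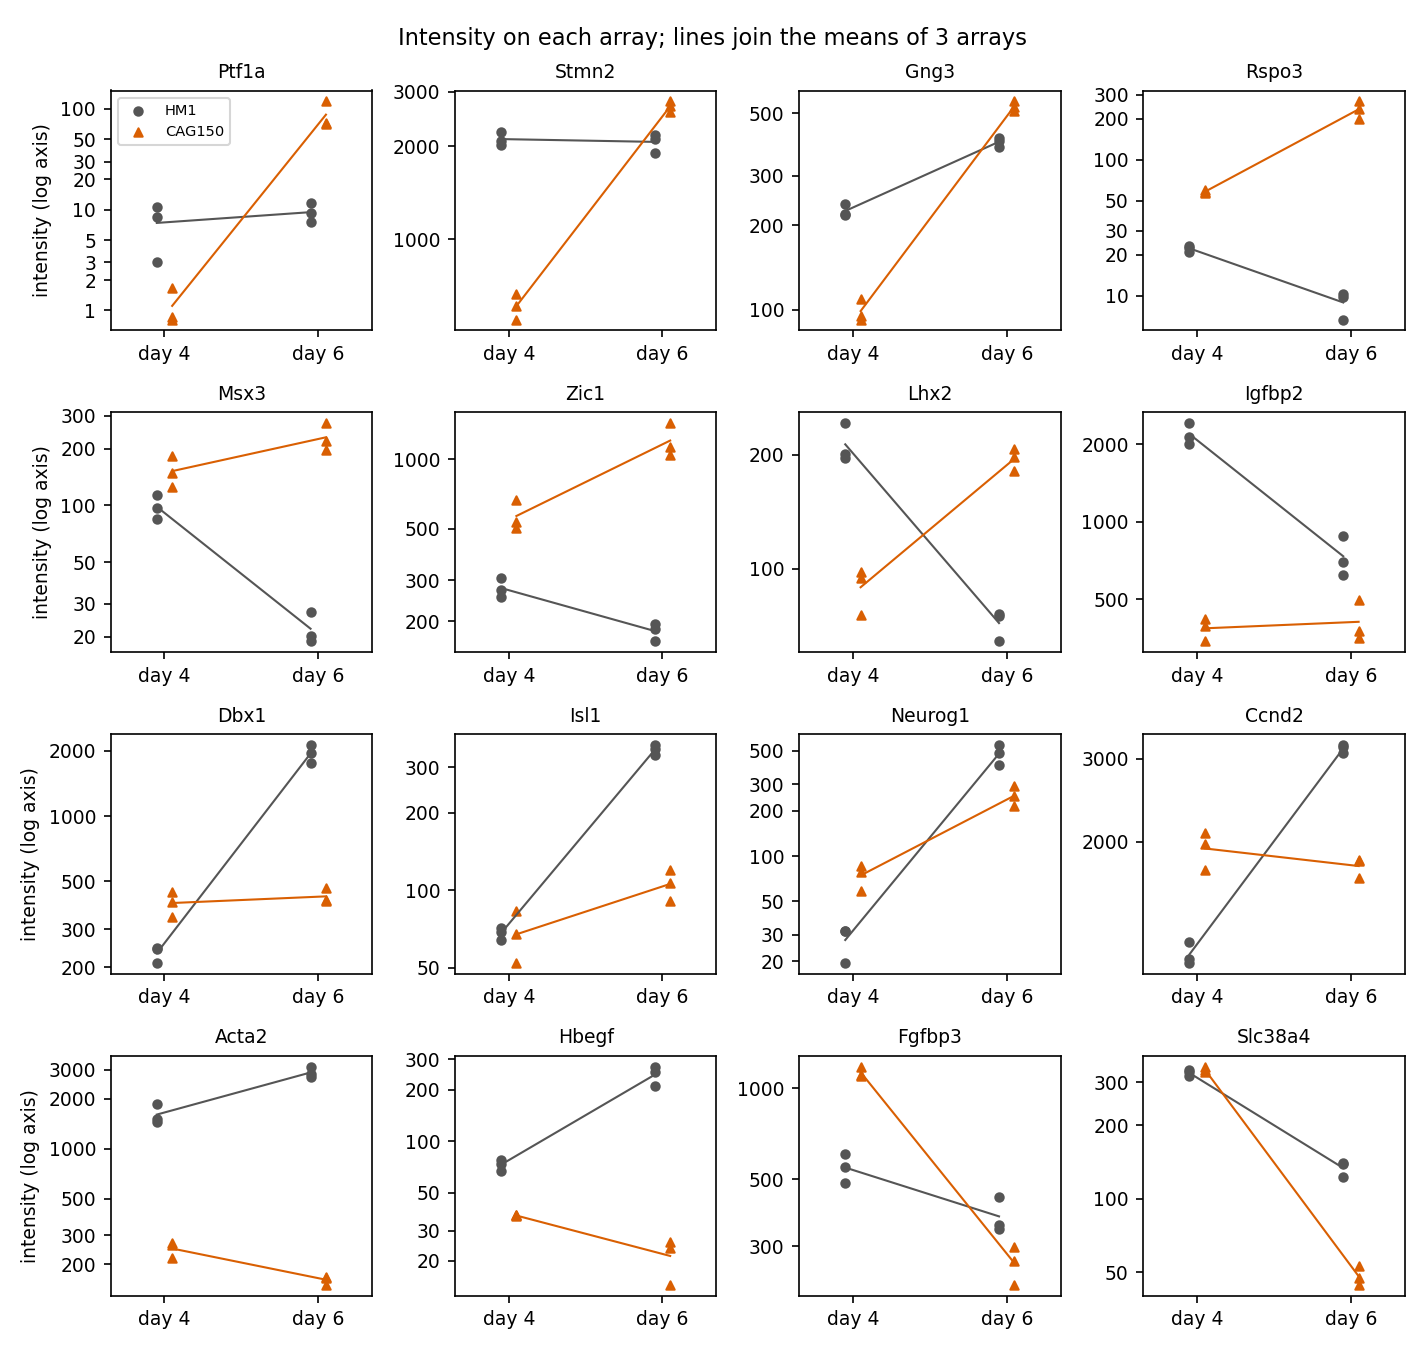
Intensity on each of the 12 arrays for 16 genes with a called interaction, on log y axes that differ between panels; circles are HM1, triangles CAG150, and lines join the group means of 3 arrays at day 4 and day 6. In the upper 2 rows CAG150 goes up more or down less than HM1, as for Stmn2, whose HM1 days overlap, and in the lower 2 rows the reverse is seen, as for Dbx1.

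The Wnt and R-spondin list of 42 measured genes gave 5 higher calls (11.9%), of which 3 were the R-spondins, and 3 lower (7.14%). Its median was 0.04, and the shares over all genes were 0.429% higher and 0.566% lower. Lef1, a transcription factor that carries out Wnt responses, measured 147, 189.6 and 151 in HM1 at day 4 and 32.3, 44.7 and 38.3 at day 6. In CAG150 Lef1 measured 174, 121 and 164 at day 4 and 99.3, 126 and 161 at day 6. It fell by 1.71 in HM1 and its days overlapped in CAG150 (interaction 1.48 ± 0.25, adjusted p = 0.018, or 1.80 and 0.97 with pseudocounts of 1 and 64). Without HM1 day 6 replicate 1 its adjusted p was 0.054 (0.0013 to 0.064 over the alternatives), and another bright probe set, at 0.32, was not called. Frzb, a secreted Wnt antagonist, had an interaction of 0.69 ± 0.14 (adjusted p = 0.042) that was not called with any array left out. Another bright probe set of Frzb, at 0.66, was not called (adjusted p = 0.17). On the lower side, Wnt7a, a Wnt ligand of neural progenitors, measured 19.5, 17.6 and 6.47 in HM1 at day 4 and 276, 206 and 284 at day 6. In CAG150 Wnt7a measured 25.1, 18.2 and 21.2 at day 4 and 91.8, 80.8 and 61.4 at day 6. The gene rose in both lines, by 3.17 in HM1 and 1.32 in CAG150 (interaction -1.85 ± 0.27, adjusted p = 0.0075), and its other bright probe set, at -0.24, was not called. Apcdd1, a membrane inhibitor of Wnt signalling, was at 181 ± 65.95 and 169 ± 11.9 in HM1 and fell in CAG150 from 711 ± 118 to 185 ± 50.5 (interaction -1.83 ± 0.32, adjusted p = 0.022), a call lost without any of 8 arrays. Of its other bright probe sets, those at -1.64, -1.62 and -1.39 were called, and that at -1.43 was not (adjusted p = 0.13). Sfrp2, another secreted antagonist, rose from 846 ± 120.1 to 2903 ± 173 in HM1 and from 1033 ± 25.9 to 1792 ± 65.1 in CAG150 (interaction -0.98 ± 0.15, adjusted p = 0.012). The R-spondin receptors did not pass: Lgr4 rose in both lines with an interaction of 0.22 ± 0.19 (adjusted p = 0.79), and Lgr5 had -0.28 ± 0.20 (adjusted p = 0.71). Axin2, a target and brake of Wnt signalling, fell in both lines and had 0.40 ± 0.20 (adjusted p = 0.54). By another probe set alone, 2 further members were called lower: Sfrp1, a secreted antagonist, by 3 probe sets from -1.32 to -1.19, and Ccnd1, a cyclin, at -1.04 (adjusted p = 0.0093).

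The called AP-2 factors of the neural crest list rose more in CAG150. The crest list had 2 higher (10.5%) and 1 lower (5.26%) among 19 measured genes, beside 0.429% and 0.566% over all genes. Its median was 0.07. Tfap2b, an AP-2 factor of crest and dorsal interneurons, measured 15.7, 10.6 and 15.4 in HM1 at day 4 and 90.97, 80.3 and 128 at day 6. In CAG150 Tfap2b measured 10.9, 18.6 and 11.5 at day 4 and 512, 464 and 569 at day 6. It rose in both lines and ended higher on each CAG150 array than on any HM1 array (interaction 2.23 ± 0.22, adjusted p = 0.00093), and a second probe set of it gave 3.20 (adjusted p = 0.00087). Tfap2a, its relative, measured 8.42, 16.2 and 15.9 in HM1 at day 4 and 30.5, 37.05 and 38.8 at day 6. In CAG150 Tfap2a measured 12.5, 10.6 and 23.1 at day 4 and 240.0, 179 and 213 at day 6. Tfap2a rose in both lines as well (interaction 2.05 ± 0.24, adjusted p = 0.0022). The lower member was Ednrb, the endothelin receptor of crest cells and neural progenitors, which rose from 242 ± 19.8 to 2140.4 ± 74.9 in HM1 and from 353 ± 25.1 to 1513 ± 117 in CAG150 (interaction -1.02 ± 0.14, adjusted p = 0.007); its 2 other bright probe sets, at -0.78 and -0.73, were not called. Among defining crest genes, Sox10 was near background with an interaction of -0.16 ± 0.31 (adjusted p = 0.93), and Ngfr rose in both lines (-0.19 ± 0.21, adjusted p = 0.84). Foxd3 and Snai1 were below the signal filter. The summed crest list was 1049 to 1183 in HM1 at day 4, 3344 to 3487 in HM1 at day 6, 1376 to 1523 in CAG150 at day 4 and 3737 to 4238 in CAG150 at day 6.

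Among factors that mark neuronal subtypes, 4 of 31 measured genes were higher (12.9%) and 3 lower (9.68%), beside 0.429% and 0.566% over all genes. Their median was -0.03. Lhx2, a LIM homeobox factor of cortex, eye and dorsal interneurons, measured 201, 243 and 196 in HM1 at day 4 and 76.2, 64.5 and 75.3 at day 6. In CAG150 Lhx2 measured 98.2, 94.9 and 75.5 at day 4 and 182, 198 and 207 at day 6. The lines exchanged places: HM1 was above CAG150 on every array at day 4 and below it on every array at day 6 (interaction 2.39 ± 0.17, adjusted p = 6.5e-05). Lhx9, which shares interneuron classes with Lhx2, measured 11.1, 15.7 and 7.96 in HM1 at day 4 and 18.5, 14.9 and 23.1 at day 6. In CAG150 Lhx9 measured 18.9, 19.2 and 20.7 at day 4 and 104, 98.00 and 149.6 at day 6. It rose in CAG150 by 1.88 ± 0.15, and the HM1 difference was 0.34 ± 0.15 (adjusted p = 0.18; interaction 1.54 ± 0.22, adjusted p = 0.0068, or 1.81 and 0.97 with pseudocounts of 1 and 64). Another probe set of Lhx9 had an interaction of 1.63 and was called (adjusted p = 0.0087), and a dimmer one had 0.15 (adjusted p = 0.91). Lmx1b, which marks serotonergic and dorsal horn neurons, had an interaction of 1.32 ± 0.23 (adjusted p = 0.024, or 1.79 and 0.74 with pseudocounts of 1 and 64) that was lost without any of 7 arrays and with the mean of its probe sets (0.0074 to 0.11 over the alternatives).

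The 3 lower subtype factors were Isl1, Lhx5 and En2, of which En2 is also in the forebrain and midbrain list. Isl1 is a LIM homeobox factor of motor and sensory neurons, and it measured 64.1, 69.1 and 71.3 in HM1 at day 4 and 367, 352 and 335 at day 6. In CAG150 Isl1 measured 82.8, 67.5 and 52.2 at day 4 and 119.8, 107 and 90.8 at day 6. Its level rose in both lines. All 3 HM1 day 6 arrays stood above 330, and the CAG150 arrays of day 6 at or below 120 (interaction -1.57 ± 0.19, adjusted p = 0.003). Lhx5 rose from 21.7 ± 4.62 to 68.6 ± 16.8 in HM1 and was at 42.9 ± 5.66 and 41.5 ± 5.52 in CAG150 (interaction -1.18 ± 0.22, adjusted p = 0.032), and kept its call without 1 of the 12 arrays. En2, a homeobox factor of midbrain and anterior hindbrain, measured 32.3, 28.2 and 15.8 in HM1 at day 4 and 35.9, 29.3 and 28.02 at day 6. In CAG150 En2 measured 108, 127 and 161 at day 4 and 48.5, 37.3 and 47.6 at day 6. It fell by 1.28 in CAG150 towards the HM1 level (interaction -1.48 ± 0.24, adjusted p = 0.015, or -1.87 and -0.94 with pseudocounts of 1 and 64). Otp, a homeobox factor of hypothalamus and spinal cord that is in neither list, rose from 43.5 ± 7.44 to 343 ± 102 in HM1 and from 73.2 ± 17.7 to 166 ± 21.6 in CAG150 (interaction -1.52 ± 0.30, adjusted p = 0.042), a call lost without any of 11 arrays.

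Genes of the forebrain and midbrain list gave 4 higher (15.4%) and 2 lower (7.69%) calls among 26, beside 0.429% and 0.566% over all genes. The median was 0.15, and Lhx2 and En2, given above, are among the called genes. Fezf2, a zinc finger factor of the forebrain, measured 107, 133 and 145 in HM1 at day 4 and 11.7, 26.7 and 30.2 at day 6. In CAG150 Fezf2 measured 44.9, 40.5 and 48.4 at day 4 and 34.4, 35.4 and 50.9 at day 6. Its relative Fezf1 measured 50.9, 59.03 and 59.3 in HM1 at day 4 and 11.2, 11.1 and 20.8 at day 6. CAG150 arrays gave Fezf1 values of 39.97, 31.8 and 44.7 at day 4 and 43.6, 46.5 and 55.6 at day 6. Both fell in HM1, with interactions of 1.80 ± 0.26 (adjusted p = 0.0081, or 2.37 and 1.09 with pseudocounts of 1 and 64) and 1.505 ± 0.20 (adjusted p = 0.0047, or 2.28 and 0.75 with pseudocounts of 1 and 64), while in CAG150 their days overlapped. Dmrta2, a cortical patterning factor, fell in HM1 from 138 ± 13.9 to 63.9 ± 12.1 and was at 299.9 ± 44.4 and 387 ± 62.03 in CAG150 (interaction 1.30 ± 0.21, adjusted p = 0.016). Without CAG150 day 4 replicate 2 its adjusted p was 0.055 (0.00087 to 0.065 over the alternatives). Sp8, a zinc finger factor of the forebrain and of limb and tail ectoderm, went the other way: it was at 460.4 ± 12.4 and 519 ± 28.7 in HM1 and fell from 484 ± 23.8 to 212 ± 43.97 in CAG150 (interaction -1.32 ± 0.19, adjusted p = 0.0069). Otx2 and Otx1 mark forebrain and midbrain. Otx2 fell in both lines and Otx1 in HM1, and neither passed for the interaction, with 0.67 ± 0.22 (adjusted p = 0.29) and 1.27 ± 0.29 (adjusted p = 0.087).

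The called genes of the neuron, synapse, transmitter and axon guidance lists were all higher. Among postmitotic neuron genes 2 of 37 measured were higher and 0 lower, with a median of 0.27 from day differences of 1.40 in HM1 and 1.88 in CAG150. Stmn2, a microtubule regulator of growing axons, measured 2081, 2219.6 and 2023 in HM1 at day 4 and 2180.0, 1904 and 2109 at day 6. In CAG150 Stmn2 measured 609, 663 and 549 at day 4 and 2587, 2791 and 2693 at day 6. The HM1 days overlapped, and CAG150 rose 4.35-fold between the days to end above HM1 (interaction 2.15 ± 0.14, adjusted p = 4e-05). A second probe set of Stmn2 had an interaction of 2.16 (adjusted p = 2.9e-05). Gng3, a G protein subunit of neurons, measured 217, 219 and 237 in HM1 at day 4 and 399, 379 and 409 at day 6. In CAG150 Gng3 measured 109.7, 92.4 and 94.9 at day 4 and 528, 509.9 and 551 at day 6. The gene rose in both lines, from a lower start in CAG150 to a higher end (interaction 1.47 ± 0.13, adjusted p = 0.00043). Other general markers rose in both lines without a called interaction: Map2 had 0.31 ± 0.14 (adjusted p = 0.47), Mapt 0.65 ± 0.18 (adjusted p = 0.19) and Dcx -0.27 ± 0.14 (adjusted p = 0.57). By another probe set alone, Celf4, a neuronal RNA-binding protein, was called higher at 1.12 (adjusted p = 0.00495) and Mapk10, a neuronal kinase, at 1.21 (adjusted p = 0.012). The list's summed intensity was 13418 to 14460.3 in HM1 and 12247 to 12972 in CAG150 at day 4, and 32961 to 36727 in HM1 and 43725 to 45049 in CAG150 at day 6.

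Syt1, the calcium sensor of synaptic vesicles, measured 74.6, 56.97 and 78.6 in HM1 at day 4 and 165, 132 and 147 at day 6. In CAG150 Syt1 measured 43.1, 35.8 and 38.1 at day 4 and 239, 215 and 227 at day 6. It was the 1 called gene of 27 in the synapse list, whose median was 0.10 (interaction 1.21 ± 0.17, adjusted p = 0.007); its 2 other bright probe sets, at 0.97 and 0.70, were not called. Of 22 transmitter genes 3 were higher (13.6%, beside 0.429% over all genes) and 0 lower, with a median of 0.15. Calb1, a calcium-binding protein of some interneurons, measured 7.03, 13.3 and 12.6 in HM1 at day 4 and 17.7, 22.3 and 22.00 at day 6. In CAG150 Calb1 measured 11.97, 10.9 and 18.6 at day 4 and 113, 79.4 and 121 at day 6. It rose in CAG150 (interaction 1.55 ± 0.22, adjusted p = 0.0069), with sizes of 1.94 and 0.93 with pseudocounts of 1 and 64, and the call was lost with the pseudocount of 1 and with the mean of its probe sets (adjusted p of 0.0018 to 0.11 over the alternatives). Calb2, a related protein, rose from 26.1 ± 16.97 to 206 ± 21.4 in CAG150 (interaction 2.11 ± 0.38, adjusted p = 0.027, or 2.75 and 1.37 with pseudocounts of 1 and 64), lost without any of 7 arrays. Slc17a6, the glutamate transporter of excitatory neurons, measured 1.31, 6.76 and 1.61 in HM1 at day 4 and 16.4, 15.5 and 35.5 at day 6. In CAG150 Slc17a6 measured 8.97, 17.3 and 18.2 at day 4 and 196, 130.2 and 191 at day 6. It rose in both lines (interaction 1.63 ± 0.30, adjusted p = 0.032), but the interaction was 0.89 and 1.22 with pseudocounts of 1 and 64. The Slc17a6 call was lost without any of 10 arrays, with quantile normalization, with the replicate block and with the pseudocount of 1. Its adjusted p was 0.0028 to 0.80 over the alternatives.

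Cacna2d1, an auxiliary subunit of calcium channels, measured 61.7, 68.4 and 53.1 in HM1 at day 4 and 67.7, 68.3 and 80.01 at day 6. In CAG150 Cacna2d1 measured 25.7, 29.6 and 23.5 at day 4 and 267, 194 and 257 at day 6. It rose 6.00-fold in CAG150, from below to above HM1 (interaction 2.39 ± 0.19, adjusted p = 0.00015), while its 2 other bright probe sets had 1.04 and 0.93 and were not called (adjusted p = 0.12 and 0.09). Runx1t1, a transcriptional corepressor, rose in both lines (interaction 1.78 ± 0.34, adjusted p = 0.034, or 2.59 and 1.10 with pseudocounts of 1 and 64), a call lost without any of 11 arrays. In the axon guidance list 4 of 40 were higher and 0 lower, with a median of 0.05. Epha3, an ephrin receptor, measured 54.8, 56.6 and 57.6 in HM1 at day 4 and 128, 104 and 142 at day 6. In CAG150 Epha3 measured 94.5, 85.3 and 77.3 at day 4 and 593, 457 and 546 at day 6. Its level rose in both lines, more so in CAG150 (interaction 1.48 ± 0.18, adjusted p = 0.003). Of its other bright probe sets, those at 1.40 and 1.64 were called, and that at 0.49 was not (adjusted p = 0.61). Sema3e, a guidance ligand, fell in HM1 from 168 ± 39.3 to 65.2 ± 15.5 (interaction 1.29 ± 0.23, adjusted p = 0.027), a call lost without any of 8 arrays. On every CAG150 array Sema3e lay between 12.1 and 17.4, near the signal filter of 11.9, so it had little room to fall there. The adhesion molecules Chl1 (0.93 ± 0.18, adjusted p = 0.041) and Nrcam (0.63 ± 0.12, adjusted p = 0.034) lost the call without any of the 12 arrays, and 1 of the other bright probe sets of Nrcam had the opposite sign (-0.04, not called).

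Neurog1, a proneural bHLH factor that drives neurogenesis, measured 31.8, 31.9 and 19.5 in HM1 at day 4 and 483, 403 and 545 at day 6. In CAG150 Neurog1 measured 78.9, 85.3 and 58.7 at day 4 and 215, 289 and 250.4 at day 6. The gene rose in both lines, from a lower start in HM1 to a higher end (interaction -1.93 ± 0.24, adjusted p = 0.003), the 1 call among 23 proneural genes, whose median was 0.01, beside Btg2, an antiproliferative gene of newborn neurons, which another probe set alone called higher at 1.001 (adjusted p = 0.00495). Ccnd2, a cyclin of dividing progenitors, measured 1129, 1230.1 and 1108 in HM1 at day 4 and 3082, 3210.0 and 3173 at day 6. In CAG150 Ccnd2 measured 2085, 1983 and 1743 at day 4 and 1678, 1822 and 1834 at day 6. HM1 arrays rose from below CAG150 to above it (interaction -1.56 ± 0.14, adjusted p = 0.00042), and all 6 other bright probe sets of the gene were called lower, from -1.74 to -1.36. Ccnd2 was the 1 call among 29 proliferation genes, whose median was -0.03, beside Ccnd1, which another probe set called lower.

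The progenitor list of 24 gave 1 higher, Zic1, and 2 lower, with a median of -0.01. Hes5, a target of Notch that holds progenitors back from differentiation, rose from 639 ± 91.1 to 2360.2 ± 168 in HM1 and from 1779 ± 269.6 to 3122 ± 439 in CAG150 (interaction -1.06 ± 0.20, adjusted p = 0.041), a call lost without any of 10 arrays. It was the 1 call in the Notch list of 24. Hes3, a related repressor, measured 69.1, 56.7 and 57.7 in HM1 at day 4 and 48.1, 30.00 and 54.9 at day 6. In CAG150 Hes3 measured 109, 146 and 154 at day 4 and 19.4, 24.5 and 31.01 at day 6. In CAG150 it fell by 1.89 (interaction -1.51 ± 0.25, adjusted p = 0.015, or -1.92 and -0.95 with pseudocounts of 1 and 64), and without CAG150 day 4 replicate 2 its adjusted p was 0.054 (0.0021 to 0.084 over the alternatives). Crabp1, which binds retinoic acid in the cell, rose from 1009.9 ± 131 to 5903 ± 153 in HM1 and from 1381 ± 126 to 4547 ± 216 in CAG150 (interaction -0.82 ± 0.16, adjusted p = 0.041), 1 call of 17 retinoid genes and lost without any of 10 arrays. Spon1, a floor plate protein, was the 1 call of 17 ventral genes (-0.84 ± 0.17, adjusted p = 0.045, or -1.25 and -0.42 with pseudocounts of 1 and 64), lost without any of 11 arrays. Tox2, an HMG-box factor, rose from 151 ± 9.26 to 564 ± 65.6 in HM1 and was at 170.5 ± 39.9 and 190.0 ± 46.4 in CAG150 (interaction -1.65 ± 0.26, adjusted p = 0.012). Scube2, a secreted protein that helps Hedgehog leave cells, rose from 112 ± 9.31 to 265 ± 29.2 in HM1 and was at 206 ± 13.1 and 145 ± 55.6 in CAG150 (interaction -1.64 ± 0.27, adjusted p = 0.015), with an adjusted p of 0.052 without CAG150 day 4 replicate 2 and of 0.0005 to 0.076 over the alternatives.

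**Figure D3:**
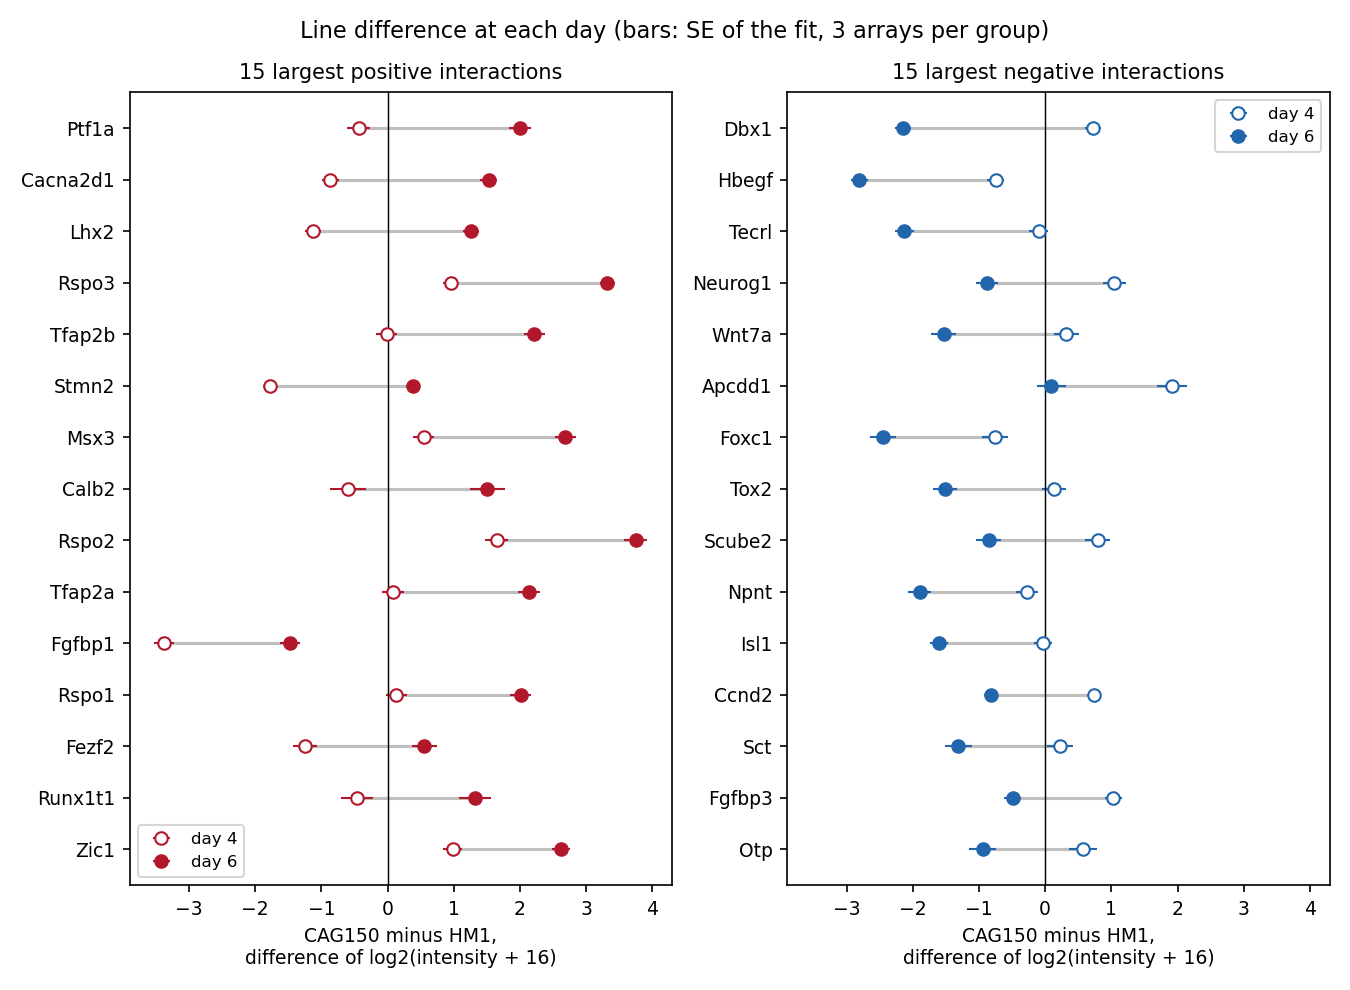
CAG150 minus HM1 in log2(intensity + 16) at day 4 (open circles) and day 6 (filled circles) for the 15 genes with the largest positive and the 15 with the largest negative called interaction above the signal filter; horizontal bars are the standard errors of the fit with 3 arrays per group. The distance between the circles of a gene is its interaction. Rspo2 was at 1.65 at day 4 and 3.75 at day 6, Lhx2 moved from -1.12 to 1.27, and Dbx1 from 0.73 to -2.15.

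Seen as a gap between the lines, most called genes had one by day 6. The interaction is the line gap at day 6 less the gap at day 4, from the same arrays. Genes picked for a called interaction are therefore likely to have a called gap, and these classes only describe them. Over all genes, CAG150 was higher than HM1 for 2.61% and lower for 3.4% at day 4, 6.01% in all, and higher for 4.13% and lower for 5.16% at day 6, 9.29% in all. Of the 78 higher genes, 39 had no called line difference at day 4 and were higher in CAG150 at day 6, 15 were lower at day 4 and no longer called at day 6, and 11 changed from lower to higher. A further 8 were lower and 5 higher at both days. Of the 103 lower genes, 55 were not called at day 4 and lower in CAG150 at day 6, 22 were higher at day 4 and not called at day 6, 17 were lower and 8 went from higher to lower. The 1 remaining gene was called at neither day.

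Growth factor pathways split between members. In the FGF list 2 of 29 were higher and 2 lower (6.9% each way, beside 0.429% and 0.566% over all genes). The median was -0.07. Fgfbp1, which releases FGFs from the matrix, measured 265, 285 and 291 in HM1 at day 4 and 44.3, 74.03 and 64.1 at day 6. In CAG150 Fgfbp1 measured 15.4, 9.29 and 13.1 at day 4 and 8.16, 13.5 and 12.6 at day 6. It fell in HM1 and was near background in CAG150 at both days, so the size depends on the pseudocount (interaction 1.91 ± 0.21, adjusted p = 0.0015, or 2.08 and 1.45 with pseudocounts of 1 and 64). Fgfbp3, of the same family, measured 547, 607 and 486 in HM1 at day 4 and 352, 343 and 435 at day 6. In CAG150 Fgfbp3 measured 1110.5, 1102 and 1179.5 at day 4 and 269, 224 and 299 at day 6. It fell in both lines, from above to below HM1 in CAG150 (interaction -1.52 ± 0.19, adjusted p = 0.003). Il17rd, an inhibitor of FGF signalling also called Sef, fell from 390.1 ± 33.1 to 138 ± 14.7 in HM1 and from 669.7 ± 34.7 to 107 ± 16.1 in CAG150 (interaction -1.08 ± 0.17, adjusted p = 0.012), while another bright probe set, at -0.53, was not called. Fgf13, an intracellular FGF homologue of neurons, fell by 0.35 in HM1 and rose by 0.35 in CAG150 (interaction 0.70 ± 0.12, adjusted p = 0.027), a call lost without any of 11 arrays. Another bright probe set of Fgf13, at 0.71, was not called (adjusted p = 0.15). Hbegf, a ligand of the EGF receptor, measured 77.8, 66.8 and 73.8 in HM1 at day 4 and 272, 252 and 209 at day 6. In CAG150 Hbegf measured 36.8, 36.9 and 36.5 at day 4 and 23.9, 25.7 and 14.5 at day 6. It rose in HM1 and fell in CAG150 (interaction -2.06 ± 0.19, adjusted p = 0.00043).

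In the BMP list 2 of 29 were higher and 2 lower (6.9% each way, beside 0.429% and 0.566% over all genes). The median was 0.09. Id2 and Id1, targets of BMP signalling that block bHLH factors, were higher with 1.02 ± 0.17 (adjusted p = 0.019) and 0.77 ± 0.14 (adjusted p = 0.026), and lost the call without any of 6 and 10 arrays. Both had no called change in HM1 and rose in CAG150, Id2 from 985 ± 92.05 to 2069 ± 330.0. Bmper, a BMP-binding protein (-0.79 ± 0.16, adjusted p = 0.045, or -1.40 and -0.35 with pseudocounts of 1 and 64), and Tgfb2, a TGF-beta ligand (-0.90 ± 0.18, adjusted p = 0.047, or -1.33 and -0.45 with pseudocounts of 1 and 64), were lower and lost the call without any of 11 arrays each. Another probe set called Bmpr1b, a BMP receptor, higher at 0.86 (adjusted p = 0.027). Among IGF and imprinted genes 2 of 28 were higher and 1 lower, with a median of -0.15. Igfbp2, which binds insulin-like growth factors, measured 2142, 2415 and 2013 in HM1 at day 4 and 701, 623 and 882 at day 6. In CAG150 Igfbp2 measured 344, 394 and 422 at day 4 and 353, 378 and 498 at day 6. It fell in HM1 and its days overlapped in CAG150, where it was lower than in HM1 at both days (interaction 1.63 ± 0.22, adjusted p = 0.005). Plagl1, an imprinted zinc finger factor, measured 2683, 2299 and 2412 in HM1 at day 4 and 3013, 2598 and 3319 at day 6. In CAG150 Plagl1 measured 842, 947 and 859 at day 4 and 2631, 2776 and 3104 at day 6. It rose in CAG150 to the range of HM1 (interaction 1.40 ± 0.17, adjusted p = 0.0027). Slc38a4, an imprinted amino acid transporter, measured 329, 318 and 336 in HM1 at day 4 and 138, 123 and 139.8 at day 6. In CAG150 Slc38a4 measured 348, 336 and 331 at day 4 and 47.3, 52.9 and 44.5 at day 6. The lines overlapped at day 4 and both fell, further in CAG150 (interaction -1.27 ± 0.13, adjusted p = 0.0011).

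The called genes of the contractile and matrix lists were all lower. The contractile list gave 0 higher and 3 lower (8.11%, beside 0.566% over all genes) among 37, with a median of -0.19. Acta2, smooth muscle actin, measured 1459.8, 1860.2 and 1505 in HM1 at day 4 and 2833, 2702 and 3133 at day 6. In CAG150 Acta2 measured 261, 218 and 268 at day 4 and 168, 151 and 166 at day 6. It rose in HM1 and fell in CAG150, and was lower in CAG150 on every array of either day (interaction -1.42 ± 0.17, adjusted p = 0.0029). Mylk, the kinase that starts smooth muscle contraction, measured 162, 183 and 146 in HM1 at day 4 and 285, 285 and 288 at day 6. In CAG150 Mylk measured 312, 283 and 394 at day 4 and 211, 219 and 199.9 at day 6. It too rose in HM1 and fell in CAG150 (interaction -1.36 ± 0.17, adjusted p = 0.0038), while 1 of its 2 other bright probe sets was not called (-0.20, adjusted p = 0.89). Ccn2, a secreted matrix protein induced by TGF-beta and YAP, rose from 794 ± 92.7 to 1515 ± 115 in HM1 and was at 678 ± 50.3 and 626 ± 37.4 in CAG150 (interaction -1.03 ± 0.16, adjusted p = 0.011).

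Some other contractile genes lay on the same side without passing. Tagln had -0.90 ± 0.19 (adjusted p = 0.056) and Myl9 -0.85 ± 0.19 (adjusted p = 0.083). Actc1 had -1.35 ± 0.31 (adjusted p = 0.092) and Tpm1 -0.53 ± 0.12 (adjusted p = 0.098). Actc1 was dim in CAG150, with 31.8 ± 8.82 at day 4 and 18.98 ± 14.8 at day 6. Others did not follow: Srf had 0.19 ± 0.18 (adjusted p = 0.82) and Tagln2 -0.05 ± 0.20 (adjusted p = 0.97). Cnn1 had -0.15 ± 0.34 (adjusted p = 0.94), and the defining late smooth muscle genes Myh11, Des, Myocd and Lmod1 were below the signal filter. The summed list was 32383 to 35085 in HM1 at day 4 and 31352 to 34594 at day 6, against 17083 to 17673 and 15325 to 16343 in CAG150. In the matrix list 0 of 37 were higher and 3 lower (8.11%, beside 0.566% over all genes), with a median of -0.25. Col4a1, the collagen of basement membranes, measured 483, 495 and 469 in HM1 at day 4 and 857, 994 and 1055 at day 6. In CAG150 Col4a1 measured 479, 491 and 529 at day 4 and 441, 503 and 499 at day 6. The lines overlapped at day 4, and only HM1 had a called change, a rise (interaction -1.03 ± 0.15, adjusted p = 0.007). Lamb1, a laminin chain, had no called change in HM1 and fell from 358 ± 14.6 to 148 ± 15.9 in CAG150 (interaction -0.97 ± 0.14, adjusted p = 0.0087); its 2 other bright probe sets, at -1.12 and -0.57, were not called. Postn, an adhesion protein of mesenchyme, was near background outside HM1 day 6 (interaction -1.27 ± 0.24, adjusted p = 0.032, or -3.497 and -0.46 with pseudocounts of 1 and 64) and lost its call without any of 9 arrays. Npnt, an integrin ligand of basement membranes, rose from 66.6 ± 12.6 to 147 ± 13.1 in HM1 and fell from 52.5 ± 14.1 to 28.2 ± 7.30 in CAG150 (interaction -1.62 ± 0.24, adjusted p = 0.0087, or -2.02 and -1.03 with pseudocounts of 1 and 64), although 1 other bright probe set gave -0.17 (adjusted p = 0.92). Anxa1, a membrane-binding annexin, rose from 166 ± 25.7 to 412 ± 32.6 in HM1 and was at 27.6 ± 6.01 and 24.5 ± 3.32 in CAG150 (interaction -1.34 ± 0.19, adjusted p = 0.007), 1 call of 17 annexin and S100 genes, beside S100a16, which another probe set called lower at -1.67 (adjusted p = 0.0013).

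Markers of non-neural germ layers were checked alongside. Of 22 mesoderm genes 0 were higher and 2 lower (9.09%, beside 0.566% over all genes). The median was 0.12, opposite in sign to the calls. Foxc1, a forkhead factor of mesenchyme, measured 50.7, 38.9 and 43.6 in HM1 at day 4 and 96.2, 92.1 and 131 at day 6. In CAG150 Foxc1 measured 8.97, 26.4 and 26.6 at day 4 and 4.98, 7.44 and 6.23 at day 6. It rose in HM1 and fell in CAG150 (interaction -1.69 ± 0.27, adjusted p = 0.014, or -2.69 and -0.91 with pseudocounts of 1 and 64). Tbx20, a T-box factor of heart and of motor neurons, rose in both lines, from 16.4 ± 2.61 to 119.6 ± 12.2 in HM1 (interaction -1.42 ± 0.26, adjusted p = 0.027, or -1.68 and -0.91 with pseudocounts of 1 and 64), and lost its call without any of 8 arrays. The list's sum was 406 to 465 in HM1 at day 4, 580 to 606 in HM1 at day 6, 283 to 353 in CAG150 at day 4 and 347 to 358 in CAG150 at day 6, and 9 of its genes, Mixl1, Tbx6 and Nkx2-5 among them, were below the signal filter. Of 29 endoderm genes 0 were higher and 2 lower, Col4a1 and Apoe, a lipid carrier (-0.78 ± 0.14, adjusted p = 0.027, or -0.97 and -0.43 with pseudocounts of 1 and 64, lost without any of 9 arrays), with a median of -0.20. Its sum was 4996 to 5428 and 5438 to 5584 in HM1 and 2542 to 2652 and 2242 to 2519 in CAG150, and 10 genes, Afp, Ttr and Sox7 among them, were below the filter.

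Epithelial genes were called in both directions, 1 higher and 2 lower of 24, with a median of 0.00. Cdh1, the cadherin of epithelia and stem cells, measured 584, 650.3 and 624 in HM1 at day 4 and 376, 426 and 353 at day 6. In CAG150 Cdh1 measured 186, 155 and 132 at day 4 and 227, 224 and 218 at day 6. It fell in HM1, rose in CAG150 and stayed lower in CAG150 on every array (interaction 1.14 ± 0.17, adjusted p = 0.0093). Krt18, a keratin (-0.89 ± 0.18, adjusted p = 0.048), and Pkp2, of desmosomes (-0.71 ± 0.14, adjusted p = 0.0498), were lower and lost the call without any of 10 and 12 arrays. The sum of the epithelial list was 3725 to 4308 in HM1 at day 4, 2785 to 3217 in HM1 at day 6, 1332 to 1392 in CAG150 at day 4 and 995 to 1036 in CAG150 at day 6. The part that the share of contractile, mesenchymal or epithelial cells has in any called gene was not tested. Tecrl, a reductase-like protein known from heart, measured 6.10, 5.99 and 3.88 in HM1 at day 4 and 94.6, 66.5 and 77.7 at day 6 and was at or under 7.03 on every CAG150 array (interaction -2.03 ± 0.21, adjusted p = 0.00093, or -2.90 and -1.01 with pseudocounts of 1 and 64). Sct, the peptide hormone secretin, was similar in shape but dim (interaction -1.54 ± 0.28, adjusted p = 0.031, or -2.95 and -0.64 with pseudocounts of 1 and 64) and lost its call without any of 9 arrays.

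**Figure D4:**
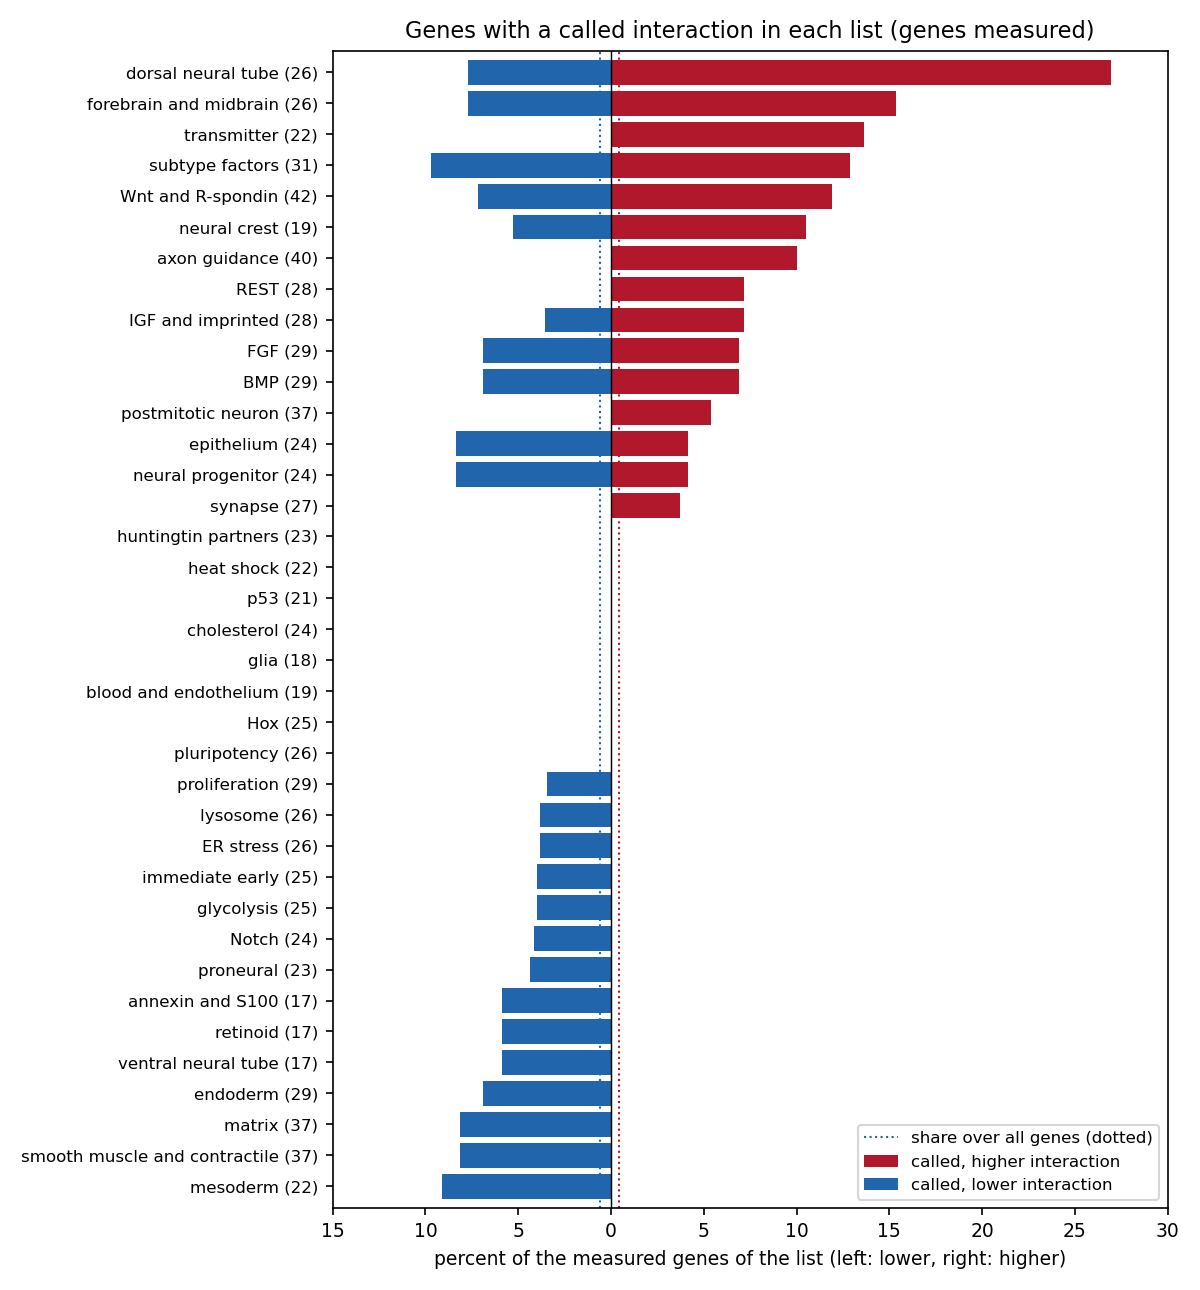
Percent of the measured genes of each of 37 lists with a called interaction, lower to the left and higher to the right, with the number of measured genes in brackets; dotted lines mark the share over all genes, 0.566% lower and 0.429% higher. The dorsal neural tube list reaches 26.9% higher and 7.69% lower, and 8 lists have no gene called by its brightest probe set. A bar of a list can rest on 1 gene, and some lists share genes. The lists were chosen with earlier results of these data known.

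The immediate early, ER stress, glycolysis and lysosome lists held 1 call each by brightest probe set, all lower. Egr1, an immediate early transcription factor, measured 210.5, 207 and 174 in HM1 at day 4 and 237, 247 and 289 at day 6. In CAG150 Egr1 measured 134, 141 and 151 at day 4 and 78.7, 85.9 and 83.4 at day 6. It rose in HM1 and fell in CAG150, the 1 call of 25 immediate early genes (interaction -1.04 ± 0.15, adjusted p = 0.0087), beside Btg2, which another probe set called higher. Chac1, a glutathione-degrading enzyme induced by the ATF4 stress response, measured 256, 265 and 266 in HM1 at day 4 and 131, 131 and 149.6 at day 6. In CAG150 Chac1 measured 298, 386 and 394 at day 4 and 68.3, 71.5 and 76.7 at day 6. It fell in both lines, from above HM1 to below it in CAG150, the 1 call of 26 ER stress genes, whose median was -0.06 (interaction -1.22 ± 0.16, adjusted p = 0.0047). By another probe set alone, Asns, of asparagine synthesis, was lower at -0.70 (adjusted p = 0.031) and Vldlr, a lipoprotein receptor, higher at 0.73 (adjusted p = 0.029). Slc2a1, the glucose transporter GLUT1, was the 1 call of 25 glycolysis genes (-0.66 ± 0.13, adjusted p = 0.042), and Ctsl, a lysosomal protease, the 1 call of 26 lysosome genes (-0.78 ± 0.15, adjusted p = 0.034), where another probe set also called Lamp2, a lysosomal membrane protein, at -0.64 (adjusted p = 0.049). Slc2a1 and Ctsl lost the call without any of 12 and 10 arrays. The REST target list gave 2 higher of 28, Stmn2 and Calb1, both named above, and another probe set called Celf4, also of the neuron list.

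The number of members with an unadjusted p under 0.05 is given last for each list below, beside a share of 11.9% over all genes. In 8 lists limma called 0 members by their brightest probe set. They were pluripotency (26 measured, median 0.09, 3 under 0.05), Hox (25, -0.06, 5), blood and endothelium (19, -0.07, 1), glia (18, 0.05, 7), cholesterol synthesis (24, 0.19, 5), p53 targets (21, -0.19, 5), heat shock (22, 0.00, 5) and huntingtin partners (23, 0.05, 2). The smallest p in each belonged to Zfp42 (0.63 ± 0.19, adjusted p = 0.24), Hoxb1 (1.02 ± 0.21, adjusted p = 0.052), Eng (0.67 ± 0.22, adjusted p = 0.27), Gja1 (-0.48 ± 0.13, adjusted p = 0.18), Fdft1 (0.55 ± 0.14, adjusted p = 0.12), Cdkn1a (-0.67 ± 0.18, adjusted p = 0.16), Hsf2 (0.76 ± 0.28, adjusted p = 0.35) and Atxn1 (0.65 ± 0.18, adjusted p = 0.17). Hoxb1, a hindbrain factor, was called with a pseudocount of 64, with the arrays centred, with the dim probe sets left out, with probe sets averaged and without CAG150 day 4 replicate 1, with an adjusted p of 0.016 to 0.42 over the alternatives. Hoxb1 measured 11.4, 7.05 and 12.7 in HM1 at day 4 and 42.7, 37.9 and 34.8 at day 6. In CAG150 Hoxb1 measured 8.37, 3.93 and 0.377 at day 4 and 64.96, 62.2 and 76.3 at day 6, and it rose in both lines. Gja1, Fdft1 and Cdkn1a were also called under at least 1 alternative, with lowest adjusted p of 0.02, 0.013 and 0.031 and highest of 0.33, 0.25 and 0.31. In 5 of these lists a member was called by another probe set alone: Flt1, a VEGF receptor, at -1.19 (adjusted p = 0.026) and Nfib, a glial factor, at 0.93 (adjusted p = 0.023), both by dim probe sets, Fdft1, of cholesterol synthesis, at 0.68 (adjusted p = 0.049), Btg2 of the p53 targets, and Hip1r, a relative of a huntingtin partner, at 1.11 (adjusted p = 0.032). Below the signal filter were 13 of the 25 Hox genes, 10 of the 19 blood and endothelium genes and 8 of the 18 glia genes. A list with no call is not shown to change alike in both lines.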

How the data were processed

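Gene expression was measured on 12 Affymetrix mouse arrays. The deposited values are linear intensities per probe set, which the authors scaled to a 2% trimmed mean of 150 on each array, as read from the values; the sources used here name no software. Of 45101 probe sets, 64 controls were left out. Of the rest, 34945 had 1 gene symbol in the platform annotation, 932 several and 9160 none. The members and gene lists were chosen with earlier results of these data known.

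Values were tested as log2(intensity + 16) with limma 3.58.1 in R 4.3.3, as 4 group means with empirical Bayes variances, with no further normalization. A pseudocount of 16 understates changes of dim genes. P-values were adjusted by Benjamini-Hochberg over the 45037 probe sets. Where a signal filter is named, it is the 40th percentile of mean log2 signal, an intensity of 11.9. Called genes above it were named by size of interaction, the 15 largest in each direction, with up to 6 called members of each list. In lists with no call, the gene with the smallest p was named. Other list members are given as values. The number of arrays limits the precision. Alternatives were quantile normalization, median centring, pseudocounts of 1 and 64, filters at the 40th and 60th percentiles, a variance trend with robust moderation, probe sets averaged per gene, replicate number as a block, and each array left out. The fit was tested on simulated data. Sequences came from the RefSeq promoter table.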

Additional observations from a re-analysis of the deposited data

Results flagged for a closer look

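The contrast itself compares the same change in a pair of lines, and its called probe sets, 123 higher and 172 lower, are listed here for that reason. Among named genes, 13 had a called day difference in each line with opposite signs. The interactions of those that fell in HM1 and rose in CAG150 were 2.39 for Lhx2, 2.37 for Rspo3, 2.13 for Msx3, 1.88 for Rspo1, 1.64 for Zic1, 1.14 for Cdh1 and 0.70 for Fgf13. Those that rose in HM1 and fell in CAG150 had -1.04 for Egr1, -1.36 for Mylk, -1.42 for Acta2, -1.62 for Npnt, -1.69 for Foxc1 and -2.06 for Hbegf. Fgf13 lost its call without any of 11 arrays, Npnt, Foxc1 and Cdh1 with a pseudocount of 1, and the others kept it under every alternative fitted. Groups of 3 arrays were too small to look for single arrays standing apart within a group.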

How the results depend on the processing

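Of the 123 probe sets called higher and 172 lower, 53 and 58 were called with a pseudocount of 1, 299 and 344 with 64, 200 and 284 with a filter at the 60th percentile (18015 probe sets tested), and 191 and 279 with a variance trend and robust moderation. With 1 array left out, 79 to 93 were higher and 84 to 124 lower. With probe sets averaged per gene (18193 tested), the day differences were 2271 higher and 1692 lower in HM1 and 2478 and 2241 in CAG150, in place of 4036 and 2625, and 4709 and 3578. With median centring 3968 probe sets were lower in HM1. Without 1 array the day differences numbered 2991 to 3945 higher and 1855 to 2572 lower in HM1, and 3794 to 4806 and 2735 to 3615 in CAG150. Of the 181 called genes, 166 kept the call with quantile normalization, 141 with median centring, 58 with a pseudocount of 1, 176 with 64, 172 with the variance trend and 145 with the mean of probe sets. Uncalled values changed sign for Nes (-0.17) and Htt (0.11) with that mean, and without 1 array for Pou5f1 (-0.16 to 0.35) and Nes (-0.091 to 0.16). The cause was not tested. With replicate number as a block, 83 probe sets were higher and 108 lower, and 115 of the 181 genes kept the call. The samples share only a number: deviations of same-numbered arrays correlated at -0.103 to 0.0725, against -0.134 to 0.144 for different numbers, and 2 of 12 arrays matched best with their own number. Intensities near the filter, 11.9, limit the size of an interaction, which there depends on the pseudocount.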

Other observations

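These genes were chosen after their values were seen. Slc7a1, Eif4ebp1, Cth and Mthfd2 were called lower, as was Chac1. Slc7a1, a carrier of cationic amino acids, measured 629, 740.0 and 715 in HM1 at day 4 and 627, 652 and 679 at day 6. In CAG150 Slc7a1 measured 745, 789.9 and 976 at day 4 and 398, 386 and 376 at day 6 (interaction -0.99 ± 0.16, adjusted p = 0.015), and the call was lost without CAG150 day 6 replicate 3. Eif4ebp1, a repressor of translation (-0.93 ± 0.15, adjusted p = 0.016), kept its call without 9 of the 12 arrays. Cth, of cysteine synthesis (-0.95 ± 0.17, adjusted p = 0.03), kept it without 2, and Mthfd2, of mitochondrial folate metabolism (-0.67 ± 0.13, adjusted p = 0.042), lost it whichever array was left out.

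Further genes kept the call without each array in turn. Nrn1, a neuronal surface protein, measured 18.4, 12.8 and 19.5 in HM1 at day 4 and 42.7, 52.5 and 45.5 at day 6. In CAG150 Nrn1 measured 23.8, 30.98 and 23.9 at day 4 and 244, 209 and 229.7 at day 6 (interaction 1.59 ± 0.17, adjusted p = 0.0012). Cbln1, a secreted synapse organizer, was at 289 ± 37.5 and 149 ± 9.29 in HM1 and 162 ± 10.6 and 249 ± 35.1 in CAG150 (interaction 1.45 ± 0.18, adjusted p = 0.0029). Ckb, the brain creatine kinase, had 1.29 ± 0.20 (adjusted p = 0.011), and Gbx2, a hindbrain homeobox factor, 1.19 ± 0.16 (adjusted p = 0.0047). On the lower side, Hmga2, a chromatin protein of embryonic cells, was at 1381 ± 133 and 1294 ± 45.9 in HM1 and 1227 ± 85.8 and 490.1 ± 43.5 in CAG150 (interaction -1.21 ± 0.15, adjusted p = 0.0034). Of its other bright probe sets, that at -1.22 was called, and those at -1.01 and -0.41 were not. Car3, a carbonic anhydrase, had -1.43 ± 0.14 (adjusted p = 0.00085), and Igdcc3, an immunoglobulin-domain receptor, -1.21 ± 0.18 (adjusted p = 0.0086).

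Eif2s3y, a Y-linked gene, measured 343, 307 and 342 in HM1 at day 4 and 166, 185 and 205 at day 6. In CAG150 Eif2s3y measured 17.04, 14.5 and 25.5 at day 4 and 32.4, 24.3 and 20.3 at day 6. It was lower in CAG150 on every array of either day, and there near the median intensity of an array, so it had little room to fall. The interaction was 1.04 ± 0.20 (adjusted p = 0.039) and kept its call without 2 of the 12 arrays.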
